A study of Homo sapiens with 8 samples.

Results

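The DDX and DHX RNA helicases were taken as all genes whose symbol is DDX followed by a number and at most 1 letter, or DHX followed by a number, leaving out the Y-linked copy of DDX3X. The rule found 53 genes, 37 DDX and 16 DHX, of the 20453 gene IDs in the files. The rule goes by name alone, though the family was picked for study with earlier results of these data known. The study sequenced mRNA and ribosome-protected fragments (footprints) of cells labelled THP-1, a leukaemia cell line of monocytic type. Cells transduced with wild-type DNMT3A, a de novo DNA methyltransferase, were compared with cells transduced with a DNMT3A mutant. Both groups therefore carried an introduced DNMT3A, and gene counts do not separate it from the cell's own copy. There were 8 libraries, 2 of each assay for each genotype.

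The mRNA libraries held 3415999 to 4523475 counts and the footprint libraries 603360 to 1988513, the mutant ones being the shallower. No label states that the replicates were separate cultures, so the p-values rest on a spread that may be technical alone. DNMT3A mRNA stood at 291 and 294 CPM (the count relative to the TMM-scaled library size, on the usual CPM scale) in wild-type and at 240.5 and 244 CPM in mutant libraries. Several defining markers of the labelled cell type were missing, and markers of another were high. The monocyte genes S100A8 and S100A9 had no count in any of the 8 libraries, CD14 had at most 2, and 10 to 12 of 25 monocyte and macrophage markers had none in an mRNA library. Other genes of that list were present: 5 to 6 of the 25 reached 10 CPM in an mRNA library, with a sum of 399 to 445 CPM, among them FCGR2A with means of 227 and 253 CPM in wild type and mutant, SPI1 with 37.1 to 47.9 CPM and LYZ with 22.2 to 26.7 CPM. GATA1, the erythroid and megakaryocytic transcription factor, stood at 437 CPM in each wild-type and at 397 and 398 CPM in the mutant mRNA libraries. Of 22 erythroid and megakaryocyte markers, 17 to 19 reached 10 CPM in each mRNA library. Their summed mRNA was 4136 and 4152 CPM in wild type against 3481 and 3509 CPM in the mutant, and their footprints 4957 and 4821 CPM against 4356 and 4403 CPM. In mRNA 11 of the 20 tested fell by edgeR and 0 rose (1 higher at an unadjusted p under 0.05, 0 by DESeq2), against 18.9% of all genes each way, and with the gene density trend described further down removed 7 fell and 2 rose. In footprints 8 of 17 fell and 4 rose by edgeR, against 11.0% and 10.3% of all genes. DESeq2 called 2 lower and 1 higher, and with the density trend removed 5 fell and 3 rose. HBG2 was among those that rose by edgeR (log2 fold change 0.66, adjusted p = 6.8e-10). This marker shift moved with genotype, and its part in the results that follow was not tested. A lower value in these bulk libraries can reflect fewer cells of a type or less RNA per cell, and these cannot be told apart.

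DDX (DEAD-box) and DHX (DEAH-box and related) proteins use ATP to open short RNA duplexes or to strip proteins from RNA. Nearly every step in the life of an RNA employs members of the family: transcription, splicing, export, translation, decay and the assembly of ribosomes. DEAD-box proteins typically pry open a duplex locally, whereas DEAH-box proteins translocate along a strand. The same fold is used by the initiation factor eIF4A, which does not carry a DDX symbol. A few members act in germ cells or as sensors of viral RNA.

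Because DNMT3A acts on CpG dinucleotides, the CpG content of the promoters was read from RefSeq (GRCh38.p14), as the 250 bases before the annotated start. A window was found for 48 of the 53 genes, 10 of them with more than 1 start. The 63 windows held a median of 21 CpG, against 11 in 34959 promoters. Windows of the 10 genes with a called mRNA rise had a median of 24 CpG (range 11 to 32), and those of the 10 with a called fall 20 (13 to 38), so that the ranges overlapped. Promoters with at most 10 CpG made up 49.6% of all promoters and 9 of the 63 helicase windows. Several of the latter, such as those of DDX4, DHX32, DDX60 and DDX19B, lie inside the gene's span, before a later annotated start. The sequences of 4 genes are shown because the results below turn on them: the single gene called in footprints per mRNA (DDX39B), the largest rise (DDX50) and the largest fall (DDX54) in mRNA, and a germ line gene without a count (DDX43). They are written 5′ to 3′ on the gene's strand, with each CG in capitals. The windows lie at chr6:31542004-31542253 (minus strand, 12 CpG), chr10:68901065-68901314 (plus strand, 17 CpG), chr12:113185479-113185728 (minus strand, 23 CpG) and chr6:73394578-73394827 (plus strand, 16 CpG). Methylation of these windows was not measured.
DDX39B: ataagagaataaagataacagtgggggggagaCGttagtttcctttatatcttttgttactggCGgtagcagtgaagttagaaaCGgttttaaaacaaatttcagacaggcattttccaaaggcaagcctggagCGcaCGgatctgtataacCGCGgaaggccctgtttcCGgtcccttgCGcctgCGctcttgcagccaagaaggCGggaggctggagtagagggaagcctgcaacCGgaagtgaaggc
DDX50: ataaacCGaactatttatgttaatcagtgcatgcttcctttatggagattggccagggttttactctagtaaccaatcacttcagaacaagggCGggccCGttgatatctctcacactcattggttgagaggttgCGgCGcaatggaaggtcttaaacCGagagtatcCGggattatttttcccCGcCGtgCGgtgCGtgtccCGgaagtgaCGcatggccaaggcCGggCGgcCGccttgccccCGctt
DDX54: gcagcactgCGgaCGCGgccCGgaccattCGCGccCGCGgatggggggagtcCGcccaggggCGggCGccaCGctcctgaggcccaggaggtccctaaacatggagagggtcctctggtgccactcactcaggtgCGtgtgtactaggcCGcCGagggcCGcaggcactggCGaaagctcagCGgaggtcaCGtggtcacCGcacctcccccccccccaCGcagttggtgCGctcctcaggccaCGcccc
DDX43: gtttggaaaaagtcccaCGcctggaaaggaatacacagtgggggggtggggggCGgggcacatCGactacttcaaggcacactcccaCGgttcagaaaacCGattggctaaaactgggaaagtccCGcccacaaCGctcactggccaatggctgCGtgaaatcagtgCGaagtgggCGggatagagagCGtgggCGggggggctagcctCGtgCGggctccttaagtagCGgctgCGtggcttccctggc

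Single helicases moved in both directions, and the sum over the family overlapped between the genotypes. The 53 genes summed to 4751 and 4639 CPM in wild-type mRNA and to 4812 and 4705 CPM in mutant mRNA. In footprints they summed to 4835 and 4731 CPM in wild type and to 4894 and 4704 CPM in the mutant. Neither assay set the genotypes apart. Of the 53 genes, 47 passed the filter on low counts in mRNA. Of these, 12 rose and 11 fell in the mutant at an edgeR adjusted p under 0.05, against 18.9% of all genes tested that rose and 18.9% that fell (37.8% in all). The median log2 fold change (mutant over wild type throughout, also as log2 change) was 0.01 over the 47 and -0.002 over all genes tested. In 16 of the 47 both mutant libraries lay above both wild-type libraries, and in 17 below, against 34.0% and 33.9% of all genes tested. In footprints 45 were tested, of which 5 rose and 6 fell, against 10.3% and 11.0% of all genes tested (21.2% in all). With total counts as the scale, the calls over all genes in footprints were 1255 higher and 813 lower in place of 944 and 1006. Both mutant footprint libraries lay above the wild type in 11 of the 45 (background 29.5%) and below it in 16 (29.3%).

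Calls depended on the replicate spread assumed and on single libraries: DESeq2 called 8 of the 47 in mRNA (4 higher, 4 lower) and 2 of the 45 in footprints (background 13.6% and 4.32%), with no adjusted p for 4 and 26 of them, and edgeR with an assumed coefficient of variation of 10% called 1 and 0 (2.91% and 3.14%), the latter with 7 at an unadjusted p under 0.05. Leaving out wild-type mRNA replicate 2 left 13 mRNA calls, and leaving out wild-type footprint replicate 2, mutant footprint replicate 1 or mutant footprint replicate 2 left 5, 1 or 2 footprint calls. In mRNA DDX50 was called in each of the 12 alternative analyses. In footprints DDX56 was called whichever library was left out.

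**Figure D1:**
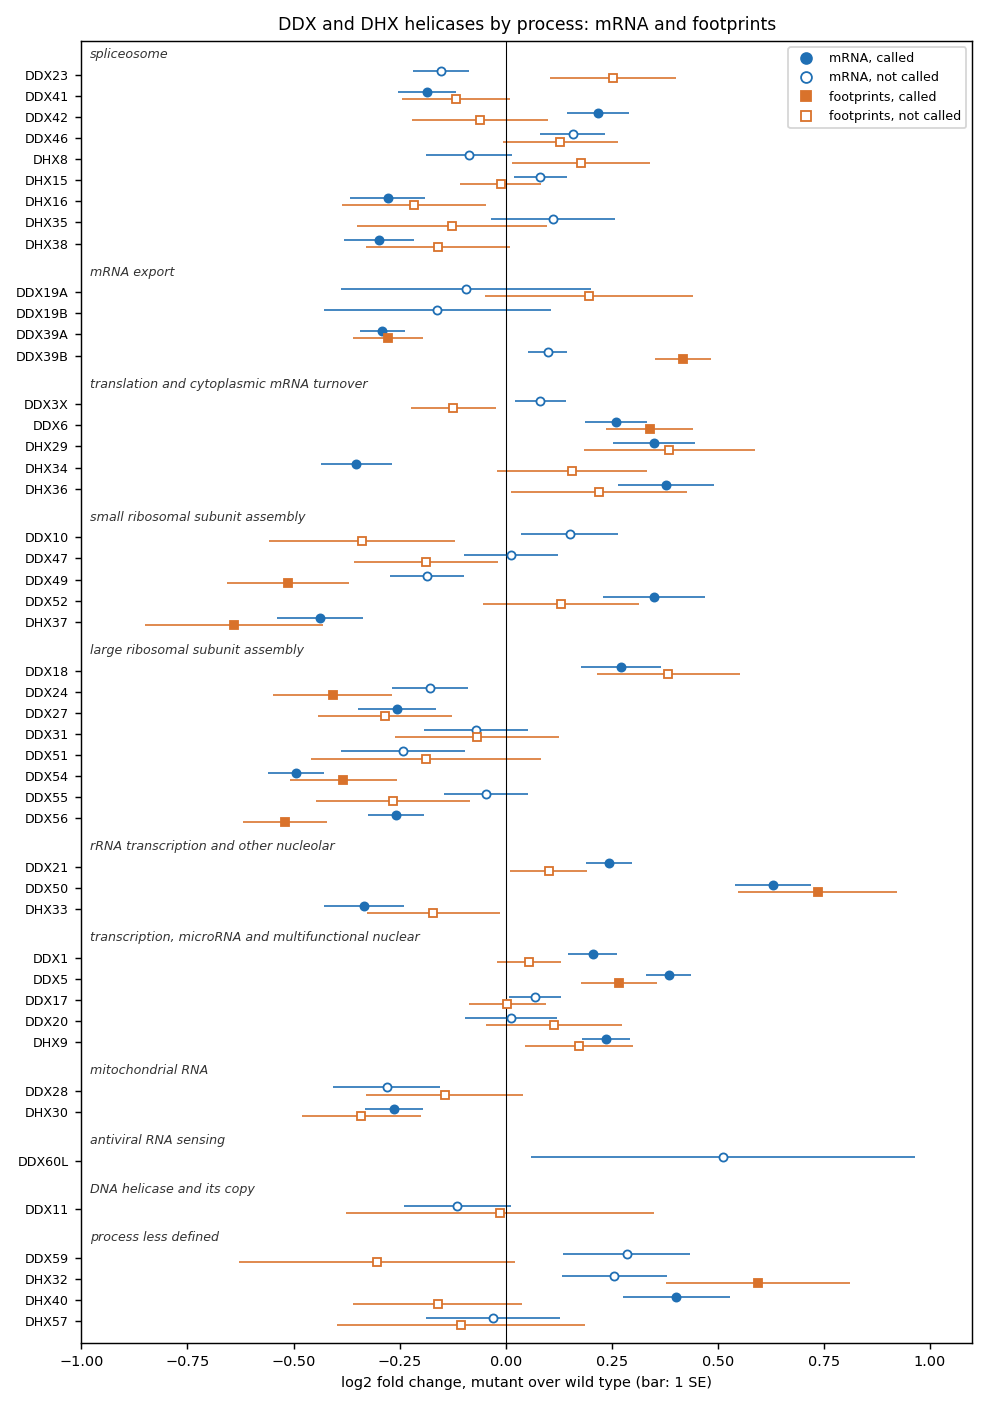
Log2 fold change, mutant over wild type, of the helicases tested, grouped by process; blue circles are mRNA, orange squares footprints, bars 1 SE, and filled symbols passed an edgeR adjusted p under 0.05 (n = 2 libraries a group). DDX50 lies farthest right among the called values in both assays (0.63 in mRNA and 0.74 in footprints), and 7 of the 8 genes for large ribosomal subunit assembly lie left of 0 in both.

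Helicases that serve ribosome assembly or otherwise act in the nucleolus made up 16 of the genes tested. In mRNA 4 of them rose and 5 fell (all genes 18.9% each way), and in footprints 1 rose and 5 fell (all genes 10.3% and 11.0%), with a median footprint log2 fold change of -0.23 against 0.006 over all genes. The 8 genes for large subunit assembly summed to 702 and 669 CPM in wild-type mRNA and to 578 and 599 CPM in mutant mRNA. Their footprints summed to 733 and 749 CPM in wild type and to 609 and 582 CPM in the mutant. The groups did not overlap in either assay, but sums of other process classes also lay apart. Those of small subunit assembly were lower in the mutant (mRNA 286 and 266 against 260 and 263 CPM, footprints 301 and 319 against 252.5 and 244 CPM). Those of translation and mRNA turnover were higher (mRNA 488 and 472 against 526 and 506 CPM, footprints 492.5 and 465 against 526 and 526 CPM). Of the 8 large subunit genes, edgeR called 3 lower and 1 higher in mRNA. In footprints 3 fell and none rose (1 was higher at an unadjusted p under 0.05). DESeq2 called 1 lower and 0 higher in each assay. An assumed coefficient of variation of 10% left 0 called in either assay. DDX18 was the 1 gene of this class that rose in mRNA.

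DDX54, a nucleolar helicase (ENSG00000123064, GRCh38 chromosome 12, 113157173 to 113185478), showed the largest mRNA fall of the family. Its mRNA stood at 180 and 178 CPM in wild-type and at 123.5 and 130.3 CPM in mutant libraries, and its footprints at 134 and 131 CPM against 98.7 and 106 CPM. Neither pair of groups overlapped. The edgeR log2 fold change was -0.49 (SE 0.066, adjusted p = 3.7e-12) in mRNA and -0.38 (SE 0.13, adjusted p = 0.0191) in footprints. DDX56, needed for assembly of the large subunit, stood at 163.5 and 163.6 CPM in wild-type mRNA and at 132 and 142 CPM in the mutant. Its footprints stood at 238 and 240.3 CPM against 177 and 151.5 CPM, apart in both assays. DDX56 fell by 0.26 in mRNA (edgeR adjusted p = 0.00056) and by 0.52 in footprints (adjusted p = 2.3e-05), on the log2 scale. DDX24 had footprints of 104 and 111 CPM in wild type and of 86.2 and 73.3 CPM in the mutant (edgeR log2 fold change -0.41, adjusted p = 0.0247), while its mRNA value of -0.18 was not called. The remaining fall in mRNA was that of DDX27 (-0.26). DDX18 rose in mRNA by a log2 fold change of 0.27 (edgeR adjusted p = 0.014), from 61.1 and 59.5 CPM to 72.8 and 72.5 CPM. DDX31, DDX51 and DDX55 were not called in either assay, with log2 fold changes between -0.27 and -0.05. By edgeR the footprint calls of DDX54 and DDX24 were lost without mutant footprint replicate 1 (adjusted p = 0.324 and 0.135) or 2 (0.0763 and 0.208), and that of DDX24 without wild-type footprint replicate 2 (0.13). The edgeR mRNA calls of DDX18 and DDX27 were lost when wild-type mRNA replicate 1 was left out (adjusted p = 0.0504 and 0.0687) or 2 (0.137 and 0.141), that of DDX18 without mutant mRNA replicate 1 (0.0624) and that of DDX27 without mutant mRNA replicate 2 (0.102).

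The small subunit is assembled with the help of DDX10, DDX47, DDX49, DDX52 and DHX37. DHX37, which dismantles the U3 snoRNA complex on the pre-ribosome, had the largest footprint fall of the family. Its mRNA was 72.6 and 62.2 CPM in wild type and 44.9 and 54.2 CPM in the mutant. Its footprints were 49.1 and 49.8 CPM against 32.2 and 31.0 CPM, so the groups stood apart in both assays. The log2 fold changes were -0.44 (SE 0.10, edgeR adjusted p = 0.00011) and -0.64 (SE 0.21, adjusted p = 0.0183). DDX49 fell in footprints, from 98.9 and 113.5 CPM to 72.7 and 78.2 CPM (log2 change -0.51, SE 0.14, edgeR adjusted p = 0.00496), while its mRNA stood at 85.3 and 83.7 CPM against 75.7 and 72.5 CPM without a call (-0.19). DDX52 went the other way and rose in mRNA, from 34.2 and 35.6 CPM to 43.6 and 45.8 CPM (log2 change 0.35, SE 0.12, edgeR adjusted p = 0.0127), while its footprints overlapped between the groups. DDX10 and DDX47 were not called in either assay. By edgeR the footprint calls of DHX37 and DDX49 were lost without wild-type footprint replicate 2 (adjusted p = 0.076 and 0.0942) and without mutant footprint replicate 1 (0.207 and 0.245) or 2 (0.102 and 0.0541). DDX52 mRNA missed the edgeR threshold when wild-type mRNA replicate 1 (adjusted p = 0.0784) or 2 (0.0673) or mutant mRNA replicate 2 (0.0612) was left out.

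DDX21 and DDX50 are paralogues that lie beside each other on chromosome 10 and whose proteins share a nucleolar location. DDX21, which couples transcription of ribosomal RNA genes to rRNA processing, lies at 68956170 to 68985068, and DDX50 (ENSG00000107625) at 68901315 to 68946847. DDX50 mRNA stood at 61.7 and 57.1 CPM in wild type and at 93.2 and 89.6 CPM in the mutant, and its footprints at 32.1 and 41.6 CPM against 58.2 and 68.4 CPM. Mutant and wild-type values of DDX50 lay apart in both assays, though its footprints rest on 51 and 81 against 56 and 42 counts. Its mRNA rose 1.55-fold (log2 0.63, SE 0.09, edgeR adjusted p = 9.6e-11) and its footprints 1.67-fold (log2 0.74, SE 0.19, adjusted p = 0.00185). DDX21 mRNA rose less, from 243 and 239 CPM to 295 and 274 CPM (log2 change 0.24, SE 0.054, edgeR adjusted p = 5.3e-05), and its footprints of 253 and 218 CPM overlapped with the mutant values of 260.8 and 236 CPM. The difference between the paralogues was not tested. DHX33, also nucleolar, fell in mRNA from 71.1 and 74.1 CPM to 58.4 and 57.0 CPM (log2 change -0.33, SE 0.095, edgeR adjusted p = 0.00217), a call that needed wild-type mRNA replicate 2 (edgeR adjusted p = 0.0748 when it was left out). The footprint call of DDX50 was lost without mutant footprint replicate 1 or 2 (edgeR adjusted p = 0.0737 and 0.0826).

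**Figure D2:**
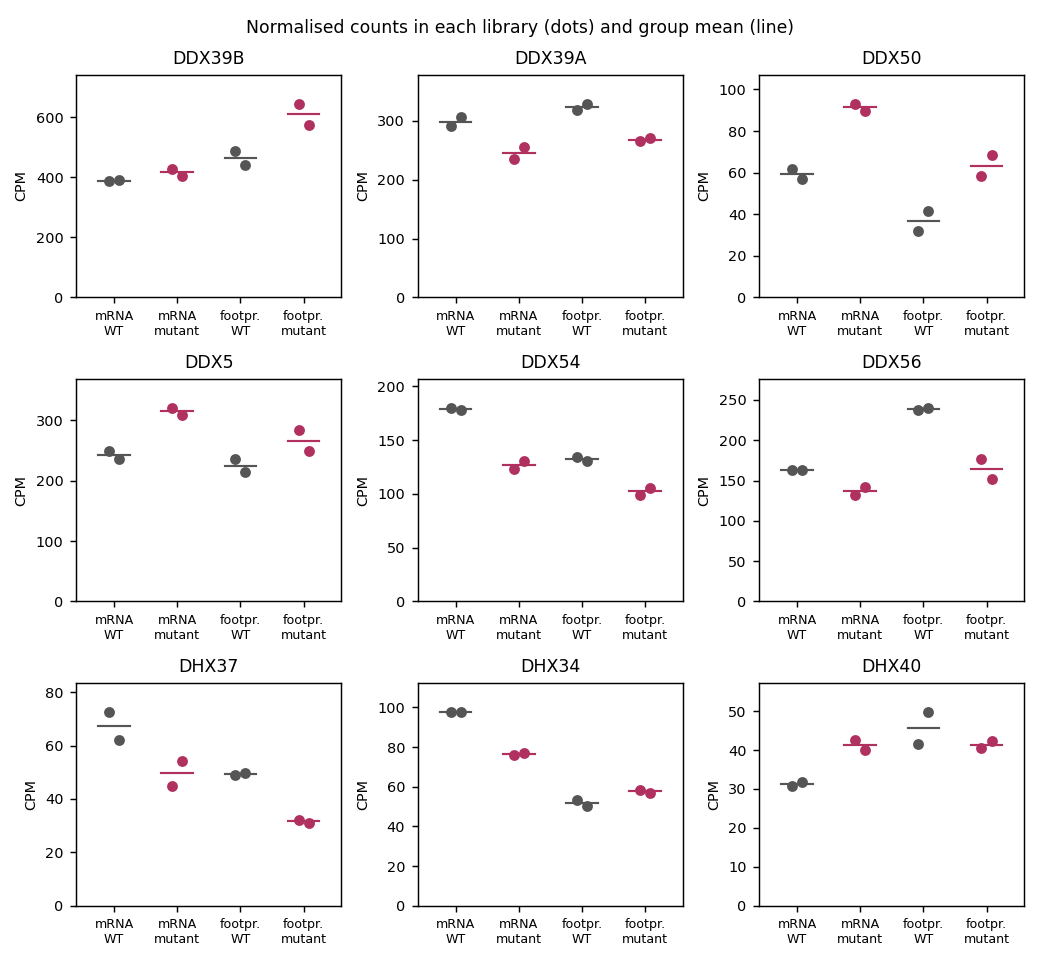
Normalised counts (CPM, linear axis from 0) of 9 helicases in each library; grey dots are wild type, red dots mutant, and lines the mean of 2 libraries. DDX50 and DDX5 lie higher in the mutant in both assays and DDX54, DDX56, DHX37 and DDX39A lower, while the mutant libraries of DHX34 lie below the wild type in mRNA and above it in footprints.

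Export of mRNA through the nuclear pore is served by pairs of close copies, and those of the first pair differed in direction. DDX39A and DDX39B (UAP56) are near-identical ATPases of the TREX export complex, and DDX39B also acts in early spliceosome assembly. DDX39B (ENSG00000198563, chromosome 6, 31530226 to 31542003) had mRNA of 389 and 390.1 CPM in wild type and 427 and 406 CPM in the mutant. Its footprints were 487 and 440.5 CPM against 646 and 575 CPM, apart by more than the spread within either group. DDX39B footprints rose (log2 fold change 0.42, SE 0.065, edgeR adjusted p = 2.3e-07), and its mRNA was not called (0.10, SE 0.047, adjusted p = 0.0823). The mRNA passed the edgeR threshold with total counts as the scale (0.13, adjusted p = 0.0181) and without mutant mRNA replicate 2 (0.14, adjusted p = 0.0139), and the footprint call was lost without mutant footprint replicate 1 (0.31, adjusted p = 0.0919). DDX39A (ENSG00000123136) had mRNA of 291 and 307 CPM in wild type and of 235 and 256 CPM in the mutant. Its footprints were 319 and 329.6 CPM against 266 and 270.5 CPM. DDX39A fell by 0.29 in mRNA (SE 0.053, edgeR adjusted p = 7.2e-07) and by 0.28 in footprints (SE 0.083, adjusted p = 0.00903), on the log2 scale. The footprint call of DDX39A was lost without wild-type footprint replicate 2 (edgeR adjusted p = 0.0527) or mutant footprint replicate 1 (0.227) or 2 (0.0734). The sources used here do not say how reads that match both copies were assigned. With the trend over local gene density taken out, as described further down, DDX39B mRNA had 0.37 (edgeR adjusted p = 2.6e-13) and DDX39A lost its calls, with -0.13 in mRNA and -0.15 in footprints (adjusted p = 0.0565 and 0.198).

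DDX19A and DDX19B, neighbouring copies that remodel mRNA at the cytoplasmic face of the pore, had few mRNA counts and unlike footprints. DDX19A mRNA was 7.08 and 6.04 CPM in wild type and 7.41 and 4.58 CPM in the mutant, with footprints of 27.1 and 25.2 CPM against 23.9 and 39.1 CPM. DDX19B mRNA was 6.79 and 9.18 CPM against 7.64 and 6.87 CPM, but its footprints came to 2, 6, 1 and 0 counts in the 4 libraries. Mutant and wild type overlapped for DDX19A in both assays and for DDX19B in mRNA. DDX19A held 3.98 footprint CPM per mRNA CPM in wild type, at the 99.5th percentile of all genes tested. Whether reads shared by the copies were given to 1 of them was not tested.

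Of the 5 cytoplasmic helicases of translation and mRNA turnover, 3 rose and 1 fell in mRNA (all genes 18.9% each way), where DESeq2 called 0 higher and 1 lower. In footprints edgeR called 1 higher and 0 lower (0 lower at an unadjusted p under 0.05, 0 either way by DESeq2), against 10.3% and 11.0% of all genes. DDX6, which represses translation and promotes decapping in P-bodies, was the member called in both assays. Its mRNA rose from 109.8 and 100.5 CPM to 128 and 122 CPM (log2 change 0.26, SE 0.074, edgeR adjusted p = 0.00214). Its footprints rose from 162 and 153 CPM to 194 and 205 CPM (0.34, SE 0.10, edgeR adjusted p = 0.00983). DHX29, which helps the small subunit scan structured leaders, rose in mRNA from 50.2 and 58.9 CPM to 71.6 and 68.5 CPM (0.35, SE 0.097, edgeR adjusted p = 0.00165). DHX36, a resolvase of G-quadruplexes, rose in mRNA from 39.2 and 38.5 CPM to 53.9 and 46.6 CPM (0.38, SE 0.11, edgeR adjusted p = 0.00401). Footprints of DHX29 and DHX36 were higher in both mutant libraries without a call (0.39 and 0.22). The mRNA calls of DDX6 and DHX36 were lost without wild-type mRNA replicate 2 (edgeR adjusted p = 0.158 and 0.066), that of DHX36 without mutant mRNA replicate 1 (0.161) and that of DHX29 without wild-type mRNA replicate 1 (0.0947). The DDX6 footprint call was lost without wild-type footprint replicate 2 (edgeR adjusted p = 0.0828) or mutant footprint replicate 1 (0.141) or 2 (0.121). DDX3X, which unwinds structured leaders during initiation, was not called: its mRNA of 191.5 and 177 CPM overlapped with 196.5 and 191 CPM, and its footprints of 203 and 190.5 CPM lay above the mutant's 189 and 166 CPM (log2 fold changes 0.08 and -0.12, edgeR adjusted p = 0.29 and 0.413). DDX3X reads may include those of its Y-linked copy.

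DHX34, a helicase of nonsense-mediated decay, fell in mRNA but not in footprints. The difference between the assays was not called (edgeR interaction, log2 0.50, adjusted p = 0.142). DHX34 mRNA stood at 97.7 and 97.6 CPM in wild type and at 75.9 and 77.1 CPM in the mutant, with a log2 fold change of -0.35 (SE 0.083, edgeR adjusted p = 0.00018). Its footprints stood at 53.5 and 50.3 CPM against 58.2 and 57.0 CPM, higher in both mutant libraries but not called (0.16, edgeR adjusted p = 0.576). Such groups apart in opposite directions occurred in 3 of the 45 helicases measured in both assays (DHX34, DDX10 and DDX59, named after their values were seen) and in 7.55% of all genes.

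Nuclear helicases that serve transcription, microRNA processing and several other steps were called in 1 direction: in mRNA 3 of 5 rose and 0 fell, against 18.9% of all genes each way (0 lower at an unadjusted p under 0.05, and 2 higher and 0 lower by DESeq2). The 5 summed to 903 and 872 CPM in wild-type and to 1058 and 1015 CPM in mutant mRNA. DDX5 (p68), a coactivator and partner of the microRNA processor Drosha, stood at 248.5 and 236 CPM against 321 and 309.5 CPM in mRNA and at 236 and 214 CPM against 284 and 249 CPM in footprints. Mutant values were the higher ones throughout. The log2 fold changes were 0.38 (SE 0.053, edgeR adjusted p = 1.7e-11) and 0.27 (SE 0.089, adjusted p = 0.0213), the second of them lost once the density trend was removed (0.20, adjusted p = 0.113). Its paralogue DDX17 (p72), which shares many of these roles, was not called. DDX17 mRNA was 183 and 179 CPM against 190.0 and 189.6 CPM and its footprints 237 and 245 CPM against 234 and 254 CPM (log2 fold changes 0.07 and 0.004). DHX9 (RNA helicase A) rose in mRNA by 0.24 (edgeR adjusted p = 0.0002), and DDX1, a member of the tRNA ligase complex, by 0.20 (adjusted p = 0.00178), both lost without wild-type mRNA replicate 2 (0.0971 and 0.0711). DDX1 stood at 0.03 (edgeR adjusted p = 0.769) once the density trend was removed. The DDX5 footprint call was lost without wild-type footprint replicate 2 (edgeR adjusted p = 0.214) or mutant footprint replicate 1 (log2 0.15, adjusted p = 0.565) or 2 (0.0591).

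Spliceosomal helicases drive each rearrangement of the splicing cycle, and their called mRNA values lay between -0.30 and 0.22 on the log2 scale. In mRNA 1 of 9 rose and 3 fell (all genes 18.9% each way), while DESeq2 called 0 higher and 0 lower, and 1 rose and 1 fell with the density trend removed. In footprints edgeR called 0 of 9 (all genes 21.2%), with 0 at an unadjusted p under 0.05 and 0 by DESeq2. DHX38 (PRP16), which acts in the second step of splicing, fell in mRNA from 98.3 and 99.4 CPM to 80.6 and 80.2 CPM (log2 change -0.30, SE 0.082, edgeR adjusted p = 0.00149). DHX16 (PRP2), which readies the first step, had -0.28 (edgeR adjusted p = 0.0064) and DDX41 -0.19 (adjusted p = 0.0225). Both calls were lost once the density trend was removed (edgeR adjusted p = 0.491 and 0.42), without wild-type mRNA replicate 1 (0.115 and 0.0853) and without mutant mRNA replicate 1 (0.0607 and 0.0894), and that of DDX41 without wild-type mRNA replicate 2 (0.189). DDX42, of the U2 snRNP, rose by 0.22 (edgeR adjusted p = 0.00996), a call that did not hold when wild-type mRNA replicate 2 (0.217) was left out, nor without mutant mRNA replicate 1 (0.0951). DHX15 (PRP43), which takes spent spliceosomes apart, was not called, with mRNA of 159.7 and 175 CPM against 185 and 170.3 CPM and footprints of 215 and 205 CPM against 217 and 194 CPM. The groups overlapped in both assays.

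The mitochondrial helicases DDX28 and DHX30 help to assemble the mitochondrial ribosome. DHX30 mRNA fell from 152 and 150.4 CPM to 127 and 125 CPM (log2 change -0.26, SE 0.068, edgeR adjusted p = 0.00068). Its footprints were 96.4 and 117 CPM against 82.1 and 89.6 CPM, lower in both mutant libraries and not called (-0.34, edgeR adjusted p = 0.0678). DDX28 was not called. Among helicases of less defined process, DHX40 mRNA rose from 30.7 and 31.8 CPM to 42.7 and 40.0 CPM (log2 change 0.40, SE 0.13, edgeR adjusted p = 0.00569, or 0.0761 without mutant mRNA replicate 1), while its footprints of 41.6 and 49.8 CPM overlapped with 40.5 and 42.4 CPM. DHX32 footprints rose from 23.3 and 34.4 CPM to 41.6 and 48.9 CPM (0.59, SE 0.22, edgeR adjusted p = 0.0371). Its mRNA of 31.0 and 36.0 CPM overlapped with the mutant values of 45.4 and 34.9 CPM. The call was lost without wild-type footprint replicate 1 (log2 0.36, edgeR adjusted p = 0.294) or mutant footprint replicate 1 (0.73, 0.211) or 2 (0.49, 0.262) and with the density trend removed (0.104). DDX11, a DNA helicase of sister chromatid cohesion with near-identical copies elsewhere in the genome, had mRNA of 39.2 and 35.6 CPM against 34.4 CPM in each mutant library and was not called.

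Helicases of germ cells and of antiviral sensing were at or near the floor. DDX4 (VASA), DDX25 and DDX43 had no count in any library. A count of 0 allows up to 3 counts, a floor of 0.671 to 0.885 CPM in mRNA and of 1.54 to 4.89 CPM in footprints that covers counting error only. The DDX43 window printed above holds 16 CpG, and the windows of DDX25 hold 13 and 33. The only DDX4 window found holds 0, but it lies inside the gene's span, before a later start (55766635 to 55766884, gene 55738061 to 55817157). It does not describe the outermost DDX4 promoter. DDX53, a cancer-testis gene, had 5 and 5 counts in wild-type and 17 and 8 in mutant mRNA (1.48 and 1.12 against 3.82 and 2.04 CPM) and did not pass the filter. Of the antiviral genes, DHX58 (LGP2) and DDX60 had at most 6 and 2 counts in a library. DDX60L had 13 and 4 against 10 and 16 mRNA counts and was not called (log2 change 0.51, SE 0.45, edgeR adjusted p = 0.386). Among 25 interferon-stimulated genes, 7 to 11 had no count in an mRNA library, and of the 10 tested 2 fell, BST2 (-0.25) and ISG15 (-0.49), and 0 rose (edgeR, with 0 higher at an unadjusted p under 0.05), against 18.9% of all genes each way. DESeq2 called 0 of the 10 lower and 0 higher, and with the density trend removed 0 fell and 1 rose. In footprints 1 of 7 rose (STAT2, 0.60) and 1 fell (IFI6, -1.75) by edgeR, against 10.3% and 11.0% of all genes. DESeq2 called 0 of the 7 higher and 0 lower. IFI6 footprints had means of 8.77 CPM in wild type and 3.26 CPM in the mutant. That mutant mean lay within the footprint floor of 1.54 to 4.89 CPM, so the size of the fall is uncertain.

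Ribosome occupancy of the helicases was read as footprint CPM per mRNA CPM, a ratio in which 1 means the same share of both kinds of library. Among the 45 helicases measured in both assays its median was 0.979 in wild type and 0.936 in the mutant, close to the medians of 1.02 and 1.01 over all genes tested. It ran from DDX11 with 0.328 to DDX19A with 3.98 in wild type. Both genes have close copies, as stated above, and the part of shared reads in these ratios was not tested. DDX11 had 21 and 22 footprint counts in wild type. DDX1 held 1.83 (range over libraries 1.73 to 1.94, 87.7th percentile of genes), and DHX9, also nuclear, 0.482 (0.452 to 0.514, 11.2th percentile). The ranges of DDX1 and DHX9 did not meet in either genotype, with 1.63 (1.52 to 1.74) and 0.463 (0.443 to 0.484) in the mutant. Spliceosomal DDX23 stood at 0.468 (0.464 to 0.472) in wild type and at 0.599 (0.491 to 0.711) in the mutant. Across the 45 genes the log2 ratios of the genotypes had a Pearson r of 0.923, given as a description. The sources used here give no lengths of the counted features, so levels were not ranked between genes.

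**Figure D3:**
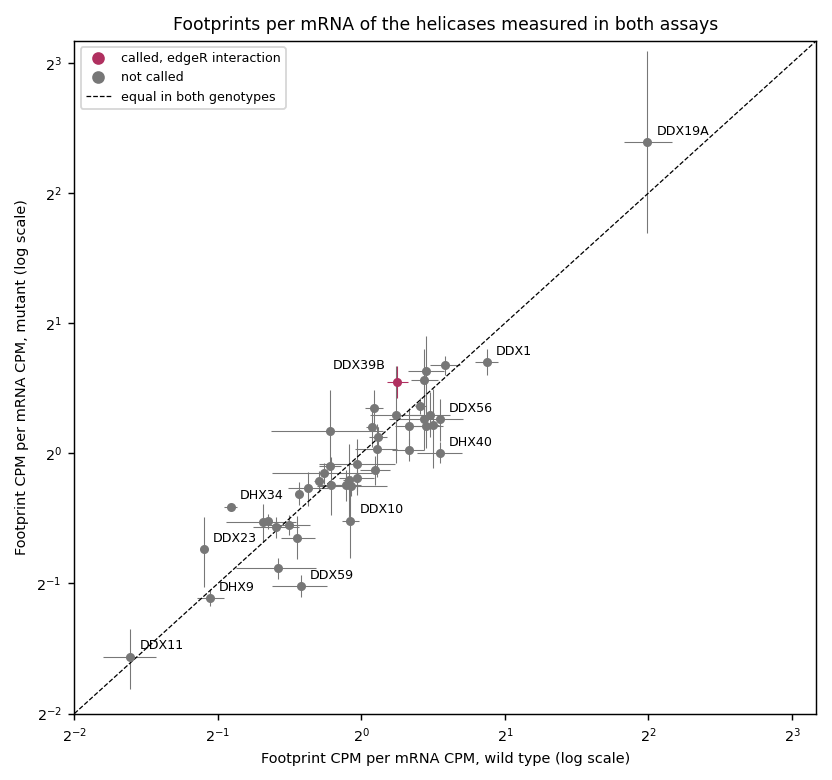
Footprint CPM per mRNA CPM in wild type (x) and mutant (y), both on log axes, for the 45 helicases tested; points are ratios of group means and bars span the lowest to the highest ratio that the 2 libraries of each assay allow. DDX39B (red) was the only gene called, at 1.19 in wild type and 1.47 in the mutant, and DDX19A, at 3.98 and 5.25, has the highest ratio in both genotypes.

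DDX39B was the single helicase of 45 whose footprints per mRNA changed, against 1.65% of all genes tested that were higher and 2.47% that were lower (4.11% in all). Its ratio was 1.19 in wild type (range 1.13 to 1.25) and 1.47 in the mutant (1.35 to 1.59). The ranges did not meet, which was also the case for uncalled helicases described below. For DDX39B the edgeR interaction gave a log2 fold change of 0.31 (SE 0.081, adjusted p = 0.0104). Its ratio went from the 61.4th to the 76.9th percentile of genes. No helicase was lower by edgeR, with 2 lower at an unadjusted p under 0.05 and 0 by DESeq2. The DDX39B call was lost with DESeq2 (adjusted p = 0.138, background 1.34%), with an assumed coefficient of variation of 10% (0.99, background 0.142%), with the density trend removed (log2 0.24, adjusted p = 0.0786, background 1.49% higher and 2.56% lower), without wild-type footprint replicate 2 (0.141) and without mutant footprint replicate 1 (log2 0.21, adjusted p = 0.406). With total counts as the scale, calls over all genes were 204 higher and 192 lower in place of 151 and 226.

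Larger shifts in footprints per mRNA than that of DDX39B were not called. DHX34 went from 0.532 (range 0.515 to 0.549) to 0.753 (0.739 to 0.767), a log2 difference of 0.50 (SE 0.2, edgeR adjusted p = 0.142). DHX40 went from 1.46 (1.31 to 1.62) to 1.00 (0.95 to 1.06), a difference of -0.57 (SE 0.23, edgeR adjusted p = 0.175). DDX59 had the largest difference, -0.59 (SE 0.36, edgeR adjusted p = 0.404), from 0.746 (0.649 to 0.847) to 0.494 (0.466 to 0.522). DDX23 had 0.40 (SE 0.16, edgeR adjusted p = 0.169). The library ranges of these 4 genes did not meet between genotypes. This also held for other helicases without a call, such as DHX8 (1.02 to 1.11 against 1.16 to 1.40). The share of all genes with such ranges was not computed. All 5 helicases of small subunit assembly had negative differences, between -0.50 for DDX10 and -0.21, also with RLE factors and with total counts as the scale, and none was called (edgeR, with 0 at an unadjusted p under 0.05 and 0 by DESeq2). For DDX50 and DDX54 the differences were 0.10 and 0.11, and for DDX39A 0.007, none of them called.

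The mRNA and footprint comparisons used different libraries, and the helicases' values in them can be set side by side. Of the 45, 33 had the same sign (73.3%), against 70% of 9166 genes. Pearson's r of the log2 fold changes was 0.651 across the 45 and 0.482 across all genes. These are descriptions across genes, which share library, depth and scaling and are not independent replicates. DDX50, DDX5 and DDX6 were called higher in both assays, and DDX54, DDX56, DHX37 and DDX39A lower in both. No helicase was called in opposite directions.

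Position in the genome moved with the fold changes. Over all genes tested, the median mRNA log2 fold change went from 0.18 in the quintile of genes with 1 to 7 protein-coding genes within 500 kb to -0.21 in the quintile with 29 to 76. In footprints the same medians were 0.14 and -0.16. These counts include the gene itself. Helicases called higher in mRNA had a median of 12 such genes (range 3 to 34) and those called lower 18 (6 to 35). With the trend removed, mRNA calls were 10 higher and 8 lower (background 13.6% and 13.6%), among them 16 of the 23 calls with the same direction, and footprint calls 3 higher and 4 lower (background 8.01% and 8.82%). The mRNA calls of DDX1, DDX18, DDX39A, DDX41, DDX52, DHX16 and DHX36 and the footprint calls of DDX39A, DDX49, DDX5 and DHX32 were lost. What underlies the trend was not tested. Of the 53 genes, 11 overlap another listed gene, among them DDX39B, DDX54, DDX5, DHX38, DHX16, DDX24 and DHX32, and the strand setting of the counting is not stated, so reads of overlapping genes cannot be told apart.

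**Figure D4:**
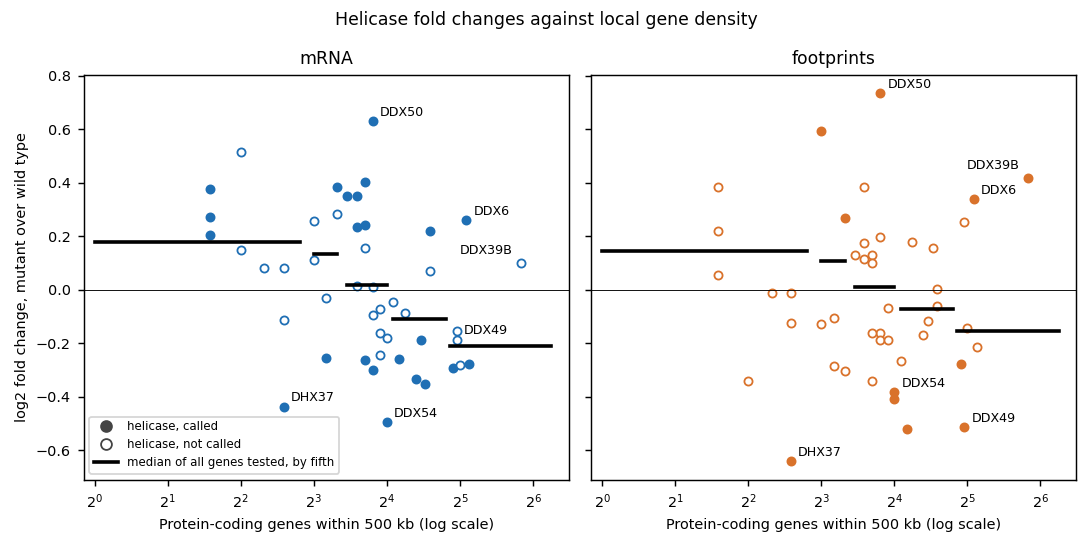
Log2 fold change of each helicase tested against the number of protein-coding genes within 500 kb (log axis), in mRNA (left) and footprints (right); filled dots were called, and black bars are medians of all genes tested in quintiles of density. DDX39B, with 57 such genes (itself included), and DDX6, with 34, lie above the falling black bars, and DHX37, with 6, lies below them.

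Related genes were read from lists of helicases without a DDX or DHX symbol and of helicase cofactors. Of 24 other RNA helicases 20 were tested in mRNA, of which 8 rose and 4 fell (all genes 18.9% each way), or 5 and 3 with the density trend removed. UPF1, the central helicase of nonsense-mediated decay, fell by 0.36 in mRNA (edgeR adjusted p = 1.9e-07) and by 0.39 in footprints (adjusted p = 0.00595). In footprints 4 of 18 rose and 3 fell (all genes 10.3% and 11.0%), but 1 rose and 0 fell with the density trend removed, and DESeq2 called 1 higher and 0 lower. The largest footprint value was that of the eIF4A paralogue EIF4A2 with 0.88 (edgeR adjusted p = 6.5e-09). EIF4A2 was also the single one of the 18 called in footprints per mRNA, against 4.11% of all genes. With the density trend removed 1 was higher and 1 lower in this ratio. EIF4A2 had 0.63 (edgeR adjusted p = 0.00148), while EIF4A1 had -0.24 (adjusted p = 0.0529). How reads shared by these near copies were counted is not stated, and its part in both values was not tested.

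G-patch proteins activate DEAH-box helicases. Of 20 tested in mRNA 1 rose (SON, 0.16) and 2 fell, with CHERP at -0.27 (edgeR adjusted p = 0.00053). In footprints edgeR called CHERP alone of the 20, at -0.53 (adjusted p = 0.00336), against 21.2% of all genes. DESeq2 called 0 of them in footprints, and with the density trend removed 0 rose and 3 fell. Of 20 MIF4G-domain and other cofactors of DEAD-box proteins 6 rose and 2 fell in mRNA. EIF4G1, the scaffold that stimulates eIF4A, fell by 0.46 on the log2 scale (edgeR adjusted p = 2.9e-16), and PDCD4, an inhibitor of eIF4A, rose by 0.62 (adjusted p = 2.5e-08). In footprints 3 of 19 cofactors rose and 3 fell by edgeR (all genes 10.3% and 11.0%), and DESeq2 called 0 higher and 1 lower. In footprints per mRNA edgeR called 0 of 19 higher and 1 lower, against 4.11% of all genes either way. EIF4H, another partner of eIF4A, fell in footprints, with -0.86 (edgeR adjusted p = 2.6e-10), and in footprints per mRNA, with -0.67 (adjusted p = 0.00011). MAGOH, of the exon junction complex, had footprints of 0.50 (log2 fold change, edgeR adjusted p = 0.00201). The shares called in mRNA were 60% for the other helicases, 15% for G-patch proteins and 40% for the cofactors, against 37.8% over all genes.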

How the data were processed

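Integer counts per Ensembl gene were used as deposited, 1 column per library for 8 libraries. Per the submitters' processing notes, the tools were STAR, featureCounts, Bowtie2, cutadapt and Trimmomatic and the genome hg38 (GRCh38), with no versions or roles given. Symbols were found for 20407 of 20453 IDs. The members, their grouping by process and the lists of related genes were chosen with earlier results of these data known.

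Genes were filtered by edgeR's filterByExpr and scaled by TMM within each assay. Mutant and wild type were compared with edgeR 4.0.16 (quasi-likelihood test, R 4.3.3) over all genes, with Benjamini-Hochberg adjustment over all genes tested and a call at an adjusted p under 0.05. For footprints per mRNA the interaction term between assay and genotype was tested in 1 fit of the 8 libraries. The fits were tested on simulated data. Named in full are, with a mean count of at least 50, the 6 largest called rises and falls of each comparison, the gene of each process with the most mRNA counts, and 4 pairs of paralogues. Alternatives were RLE factors, total counts, DESeq2 1.42.0, no filter, legacy dispersions, an assumed coefficient of variation of 10%, a replicate block, removal of the gene density trend (lowess over RefSeq protein-coding genes within 500 kb) and leaving out each library. A left-out library leaves 1 of a genotype, whose spread is then taken from the others. Depth set the precision: a count of 3 stood for up to 0.885 CPM in mRNA and up to 4.89 CPM in footprints. Transcript lengths and protein sequences were not used here.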

Additional observations from a re-analysis of the deposited data

Results flagged for a closer look

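DDX39B footprints per mRNA differed between the genotypes by the test of the difference itself. The edgeR interaction gave a log2 value of 0.3141 (SE 0.081, adjusted p = 0.0104), with both mutant footprint libraries above both wild-type libraries. Over its alternatives the adjusted p ran from 0.00158 to 0.99.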

How the results depend on the processing

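No called value of a called or named helicase turned its direction in these alternatives. Single values stayed on their side of the threshold 234 times for mRNA, 122 for footprints and 171 for their ratio, lost a call 70, 50 and 5 times and gained one 5 times, all in mRNA. Uncalled values changed sign 2, 1 and 12 times. DESeq2 called 8 helicases in mRNA (4 higher, 4 lower), 2 in footprints (1 higher, 1 lower) and 0 for the ratio, footprints per mRNA, where it gave no adjusted p for 4, 26 and 23 of them (18, 6 and 1 passed an unadjusted p under 0.05). edgeR with an assumed coefficient of variation of 10% called 1 in mRNA (1 higher, 0 lower), 0 in footprints (0 higher, 0 lower) and 0 in footprints per mRNA (0 higher), with 8, 7 and 0 at an unadjusted p under 0.05. Without the filter on low counts 3 were higher in footprints. With the gene density trend removed 7 were called in footprints (3 higher) and 0 in footprints per mRNA (0 higher). Leaving out single libraries gave 13 to 25 calls in mRNA (5 to 15 higher), 1 to 11 in footprints (0 to 4 higher, 1 to 7 lower) and 0 to 1 in footprints per mRNA (0 to 1 higher). The replicate block gave 13 higher and 13 lower in mRNA, 5 and 6 in footprints and 1 higher in footprints per mRNA; it added mRNA calls for DDX39B (0.10, adjusted p = 0.0458) and DDX49 (-0.19, adjusted p = 0.0489). Samples share only a number: deviations of same-numbered libraries correlated at 0.0551 in mRNA and 0.0881 in footprints over 2 pairs each. Causes of these changes were not tested. DDX19B and DDX60L had at most 6 and 3 counts in a footprint library and were tested in mRNA but not in footprints; the part of depth in this was not tested.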
